A study of Mus musculus with 8 samples.

Results

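Vomeronasal sensory neurons are replaced throughout adult life, and 8 genes that mark the steps of that replacement are described here. Mki67 and Top2a mark dividing cells, Neurog1 and Neurod1 mark cells committed to become neurons, and Gap43, Stmn2, Dpysl3 and Dpysl5 mark young neurons that are growing axons. The 8 genes were chosen by symbol, and all 8 were among the 27532 genes listed for the vomeronasal organ and passed the filter on low levels. RNA of the whole dissected organ was sequenced from 4 adult mice heterozygous for Tex15 (Tex15HET) and 4 adult Tex15 knockout mice (Tex15KO). Tex15 is a gene best known for its role in male germ cells. The labels name neither the strain nor how the allele was made, and the controls carried 1 mutant allele, so no wild-type animal was analysed here. Heterozygous replicate 1 was a male of 11.4 weeks, replicate 2 a female of 14.6 weeks, and replicates 3 and 4 were females of 11.9 weeks. Knockout replicate 1 was a female of 11.9 weeks, replicates 2 and 3 were males of 11.9 weeks, and replicate 4 was a male of 12.1 weeks. By the animal numbers in the titles, heterozygous replicates 1 and 2 carried lower numbers than the other 6 mice, whose numbers lie close together. The lower-numbered animals thus included no knockout. Each library came from 1 animal.

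In the vomeronasal epithelium, basal progenitors divide and pass through a series of transcription factors of the basic helix-loop-helix family, in which Neurog1 comes before Neurod1. The daughter cells then make growth cone proteins such as Gap43 while their axons extend to the accessory olfactory bulb. On maturing they lose Gap43 and gain Omp, the olfactory marker protein, together with the G protein subunit Gnai2 in the apical layer or Gnao1 in the basal layer. Mki67 and Top2a are made by any dividing cell and are not restricted to the neuronal lineage. Which cells of the whole organ made the RNA of any of these genes was not tested.

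Values are TPM, read counts divided by gene length and scaled to a common sum in each library, as deposited by the authors. Between 17398012 and 25782680 reads per library were recovered from these values. Tex15 itself lay at 2.72, 2.29, 2.81 and 2.27 TPM in heterozygous replicates 1 to 4 and at 0.870, 1.23, 1.12 and 1.14 TPM in knockout replicates 1 to 4, without overlap. Its relative log2 fold change, as defined below for all genes, was -1.22 and did not pass the threshold (limma, adjusted p = 0.794). Libraries differed in scale: genes for odorant-binding proteins and lipocalins, secreted by glands, took 10.8% to 40.6% of all TPM, and the median-ratio factor, the level of a typical gene in a library against the other libraries, ranged from 0.666 in heterozygous replicate 2 to 1.39 in heterozygous replicate 3. Omp stood apart in 1 library, at 66.7 TPM in heterozygous replicate 1 against 571 to 943 TPM in the other 7. Gnai2 and Gnao1 did not stand apart there, at 176 and 17.3 TPM within the 114 to 302 and 11.5 to 30.7 TPM of the other libraries. What sets Omp apart in this animal was not tested. Whether a ratio to Omp stands for a ratio to mature neurons in this library was not tested either.

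All 8 genes were detected in all 8 libraries, and their levels, which are per length, followed a steady order. Dpysl3 had a mean of 66.3 TPM over the 8 libraries, Gap43 38.1, Stmn2 23.8, Dpysl5 10.3, Top2a 4.75, Mki67 3.80, Neurod1 2.64 and Neurog1 0.804 TPM. Each gene was higher than the next in this order within all 8 libraries, except that Mki67 exceeded Neurod1 in 7 of 8. Between libraries the ranges of all neighbours in the order overlapped. The growth cone genes were thus the most abundant of the set and the commitment factor Neurog1 the least, with 5 to 32 reads per library against 3013 to 6495 reads for Dpysl3.

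**Figure D1:**
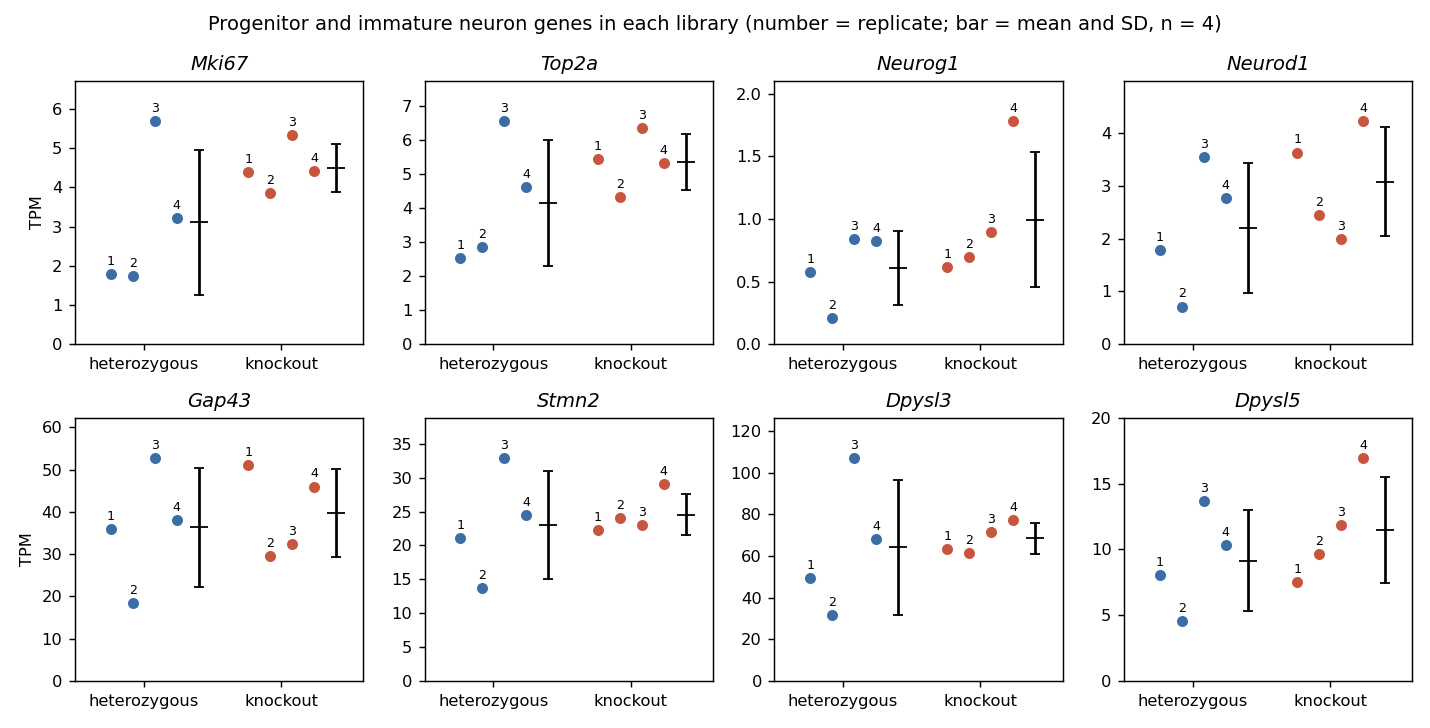
Level of each of the 8 genes in TPM (vertical axis, from 0) in the 4 heterozygous (blue) and 4 knockout (red) libraries, numbered by replicate, with the mean and SD of each group in black. The groups overlap for every gene, and heterozygous replicate 2 is the lowest library for 7 of the 8 genes.

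None of the 8 genes differed between genotypes past the threshold. In a limma fit with genotype and sex as terms, 0 of 8 had an adjusted p under 0.05 (Benjamini-Hochberg over 20305 genes), where 0.586% of all genes tested were called, 43 higher and 76 lower in knockout libraries. At an unadjusted p under 0.05 the count was also 0 of 8, where 3.10% of all genes passed. The groups overlapped in TPM for all 8 genes, where 1.40% of all genes tested had groups without overlap. The deposited TPM of the median tested gene was itself 0.19 higher (log2) in the knockout libraries. This shift turned with the fit. It was -0.07 without heterozygous replicate 1, 0.46 without knockout replicate 1 and -0.32 with animal series as a term. Each relative log2 fold change below is the fitted difference minus the shift of its own fit, while p-values test the fitted difference. Of the 8 genes 7 lay above the median gene and 1 below, with a median relative log2 fold change of 0.09.

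Scaling the libraries narrowed the errors. After each library was divided by its median-ratio factor, limma with the same terms called 0.767% of 20197 genes, 28 higher and 127 lower, and again 0 of the 8. At an unadjusted p under 0.05, 2 of the 8 passed, Mki67 and Top2a, where 5.42% of all genes did. In a limma-voom fit to the recovered reads the same 2 genes passed at an unadjusted p under 0.05, where 2.77% of all genes did, and 0 of the 8 passed at an adjusted p under 0.05, where 0.233% did. In whole tissue, fewer cells of a type and less RNA per cell cannot be told apart for any of these genes.

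**Figure D2:**
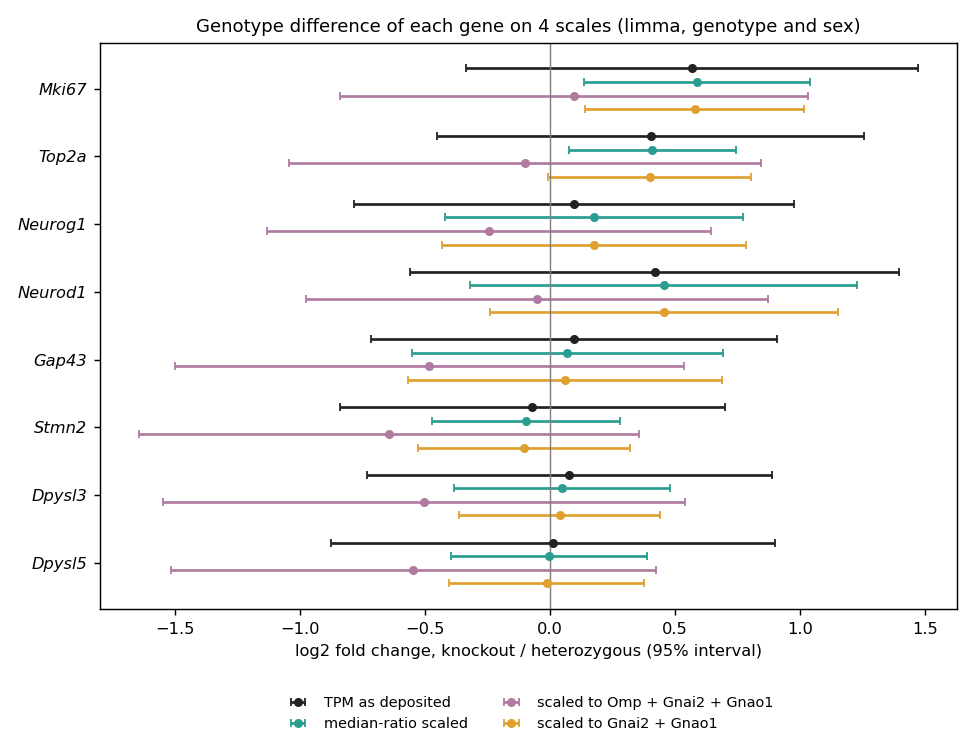
Log2 fold change of each gene, knockout over heterozygous, from limma with genotype and sex as terms, with its 95% interval, for TPM as deposited and after median-ratio scaling (both relative to the median gene) and after scaling to Omp, Gnai2 and Gnao1 or to Gnai2 and Gnao1 (as fitted). Mki67 lies at 0.57, 0.59, 0.09 and 0.58, and with Omp in the reference all 8 genes lie lower, as does the median of all tested genes, which is at -0.52 on that scale.

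Dividing cells were represented by Mki67 and Top2a. Mki67 (ENSMUSG00000031004, chr7:135689784-135716361, minus strand, GRCm38) encodes Ki-67, which coats the chromosomes of mitotic cells. It was at 1.79, 1.73, 5.68 and 3.22 TPM in heterozygous replicates 1 to 4 and at 4.38, 3.86, 5.33 and 4.41 TPM in knockout replicates 1 to 4. Heterozygous replicates 1 and 2 were the lowest and replicate 3 the highest of all libraries, and the 4 knockout libraries lay between them. The means were 3.10 ± 1.85 TPM (SD, n = 4) and 4.496 ± 0.613 TPM (SD, n = 4). The relative log2 fold change was 0.57 with a 95% interval from -0.34 to 1.47 (limma, adjusted p = 1.0).

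After median-ratio scaling, Mki67 ranged from 2.33 to 4.08 in the heterozygous libraries and from 3.30 to 4.56 in the knockout libraries. Knockout replicates 1, 2 and 3 were then above all heterozygous libraries, and replicate 4 was below heterozygous replicate 3. The log2 fold change on this scale was 0.59, with a 95% interval from 0.14 to 1.04 (limma, adjusted p = 0.694). Relative to the median gene of each fit, it ranged from 0.24 to 0.67 over the 35 alternative fits, and its adjusted p from 0.487 to 1.0. It was positive in all 35 and had an unadjusted p under 0.05 in 8, fits in which 2.77% to 9.25% of all genes tested did. Heterozygous replicates 1, 2 and 4 were below every knockout library on this scale, the first pair being the lower-numbered animals. Within the higher-numbered animals the relative log2 fold change of the deposited TPM was 0.35 with the sex term, against 0.57 over all animals. Without the sex term these values were 0.24 and 0.45. On scaled values within the higher-numbered animals, without the sex term, it was 0.24 with a 95% interval from -0.21 to 0.69 (limma, adjusted p = 1.0).

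Top2a (ENSMUSG00000020914, chr11:98992943-99024189, minus strand, GRCm38) encodes topoisomerase II alpha, which untangles sister chromatids before they separate. It was at 2.53, 2.86, 6.55 and 4.62 TPM in heterozygous replicates 1 to 4 and at 5.43, 4.33, 6.35 and 5.32 TPM in knockout replicates 1 to 4. In TPM the pattern followed Mki67, with heterozygous replicates 1 and 2 lowest and replicate 3 highest. After median-ratio scaling heterozygous replicate 1 was still the lowest library, at 3.294. Heterozygous replicate 2, at 4.295, was then above heterozygous replicate 4, at 4.187, and knockout replicate 4, at 3.976. Heterozygous replicate 3, at 4.701, was then below knockout replicates 1, 2 and 3. The means were 4.14 ± 1.85 TPM and 5.36 ± 0.824 TPM (SD, n = 4 each), and the relative log2 fold change was 0.40 with a 95% interval from -0.45 to 1.26 (limma, adjusted p = 1.0). After median-ratio scaling it was 0.41, with a 95% interval from 0.07 to 0.74 (limma, adjusted p = 0.790). Within the higher-numbered animals the deposited TPM gave 0.31 with the sex term, against 0.40 over all animals, and 0.14 without it, against 0.26. The scaled values of these animals, without the sex term, gave 0.14 with a 95% interval from -0.25 to 0.54 (limma, adjusted p = 1.0). The lower-numbered animals were all heterozygous, so animal series and genotype cannot be told apart in them.

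Mki67 and Top2a varied together from library to library. Over the 8 libraries Pearson's r of their log2 values was 0.98 in TPM and 0.90 after median-ratio scaling, with a Spearman's rho of 0.90 on the scaled values. Without the 2 libraries farthest from the median of Mki67 the scaled r was 0.90, and within genotypes it was 0.85. The values of a library share its depth and composition, and these correlations are a description of 28 pairs computed, whose scaled r ranged from -0.31 to 0.90 with a median of 0.30. Top2a was above Mki67 in every library, by 1.12 to 1.65 times per length.

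The promoters of Mki67 and Top2a are shown: the 250 bases before the RefSeq transcription start, read from the gene's own strand in build GRCm38.p6 (Top2a chr11:99024190-99024439, minus strand; Mki67 chr7:135716380-135716629, minus strand). Neurog1 and Dpysl5 had an equally high scaled r of 0.90, and their promoters are not printed. Any link between promoter letters and such likeness was not tested. Capitals mark the letters CCAAT and TTTGAA on either strand (read as ATTGG for the first and as TTCAAA for the second where the match lies on the opposite strand). CCAAT is the core bound by the factor NF-Y, and TTTGAA is a form of the cell cycle homology region of genes expressed in G2 and M phase.
Top2a: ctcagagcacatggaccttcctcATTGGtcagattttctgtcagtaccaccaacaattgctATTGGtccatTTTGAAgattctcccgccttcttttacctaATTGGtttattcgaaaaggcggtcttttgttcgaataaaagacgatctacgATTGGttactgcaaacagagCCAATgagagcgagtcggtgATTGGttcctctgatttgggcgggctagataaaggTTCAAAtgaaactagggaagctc
Mki67: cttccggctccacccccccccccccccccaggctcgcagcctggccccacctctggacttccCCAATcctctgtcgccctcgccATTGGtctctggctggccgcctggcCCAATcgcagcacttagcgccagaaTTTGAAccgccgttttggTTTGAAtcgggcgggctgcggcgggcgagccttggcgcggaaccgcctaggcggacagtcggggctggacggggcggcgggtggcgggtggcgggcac

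The Top2a promoter held 6 matches to CCAAT and 2 to TTTGAA, and the Mki67 promoter 3 and 2. Of the 32851 promoters of the same length in the RefSeq table, 33.8% held at least 1 CCAAT and 10.1% at least 2, 0.213% held 5 or more, and 16.0% held at least 1 TTTGAA and 1.8% at least 2. Their base composition differed, with 43.6% G or C in Top2a and 71.6% in Mki67. The promoters of Neurog1, Neurod1 and Dpysl5 were also matched, and among them only Neurog1 held a CCAAT, 1 match, and none held TTTGAA. The letters TTTAAA were also searched on both strands, as were the E2F forms TTTGGCGC in one search and TTTCCCGC in another. The E-box, which helix-loop-helix factors bind, was searched in general form as CANNTG and in the specific forms CAGATG for one search and CAGCTG for another, both of which the general form includes. Only CANNTG was found in any of the 5 promoters: 3 matches in Top2a, 1 each in Neurod1 and Dpysl5 and 0 in Neurog1 and Mki67, where 66.2% of all promoters held it. The Top2a match nearest the start, CANNTG, shares 4 bases with the TTTGAA match beside it. These matches are letters in a window and not measured binding.

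Other genes of the cell cycle lay on both sides of the median gene. Of 36 other G2 and M phase genes, all tested, 0 were called in the limma fit, 23 were above and 13 below the median gene, and their median log2 fold change was 0.03. Mki67 lay above all 36 of them, and Top2a above 35. Plk1, the mitotic kinase, was the highest of the list at 0.49, and Ube2c, which marks cyclins for destruction, the lowest at -0.50. Of 26 S phase genes, 22 were tested, 0 were called, 12 were above and 10 below the median gene, and their median was 0.01. After median-ratio scaling the medians were 0.09 over the 35 G2 and M phase genes tested and 0.02 over the 22 S phase genes. On that scale Mki67 lay above all of them, and Top2a above all but Plk1. The side of the median gene on which these lists lay depended on the fit. Without the sex term 14 G2 and M phase genes were above and 22 below it, with a median of -0.04, and the S phase median was -0.064. With a pseudocount of 1 the G2 and M phase split was 16 above and 20 below, and in the higher-numbered animals without the sex term it was 12 and 24.

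The most abundant genes of those lists showed how far the groups overlapped. Pcna, the sliding clamp of DNA replication, lay at 45.2 to 84.7 TPM in heterozygous and 51.2 to 75.1 TPM in knockout libraries. The replicative helicase subunits Mcm7 and Mcm4 ranged from 7.33 to 16.5 and from 5.87 to 11.8 TPM in heterozygous and from 10.3 to 14.6 and from 6.21 to 12.2 TPM in knockout libraries. Slbp, which binds histone mRNA, lay at 6.51 to 12.1 and 6.84 to 10.1 TPM. The condensin subunits Smc4 and Smc2 lay at 12.4 to 25.6 and 3.97 to 8.15 TPM in heterozygous and at 14.8 to 21.1 and 5.54 to 6.94 TPM in knockout libraries. Cdc20, an activator of the anaphase-promoting complex, lay at 3.36 to 9.21 and 3.93 to 7.30 TPM, and Plk1 at 1.74 to 7.78 and 3.34 to 9.30 TPM. In each of these genes the knockout range overlapped the heterozygous range.

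**Figure D3:**
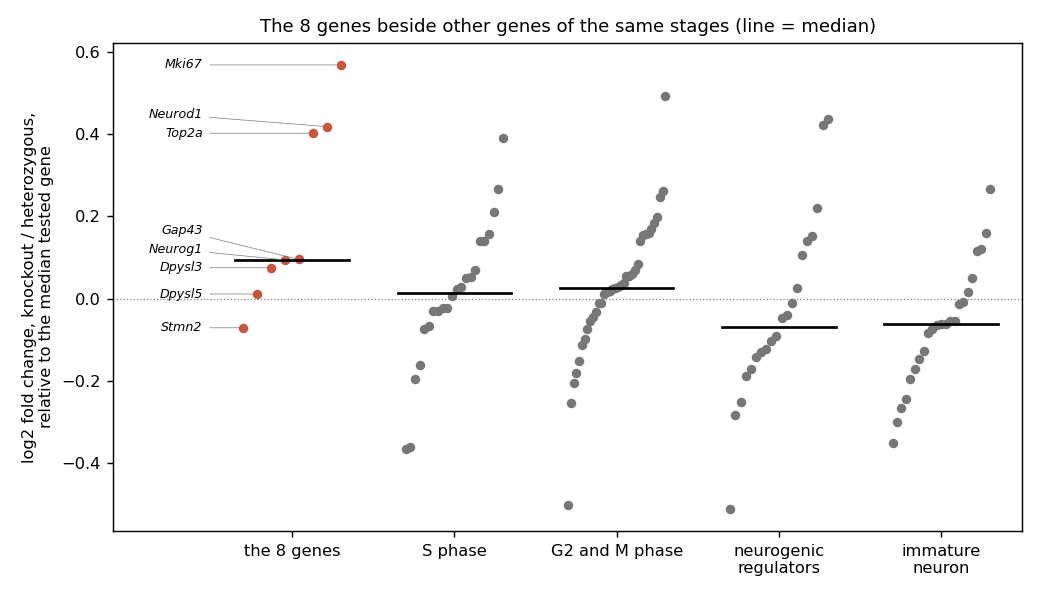
Log2 fold change relative to the median tested gene (vertical axis) for the 8 genes (red) and for each tested gene of the S phase, G2 and M phase, neurogenic regulator and immature neuron lists (grey), sorted within each list, with the list's median as a line. Mki67 at 0.57 lies above all genes of the 4 lists, whose medians lie between -0.07 and 0.03.

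Commitment to the neuronal fate was represented by Neurog1 and Neurod1. Neurog1 (ENSMUSG00000048904, chr13:56250478-56252163, minus strand, GRCm38) was at 0.580, 0.207, 0.840 and 0.823 TPM in heterozygous replicates 1 to 4 and at 0.613, 0.693, 0.893 and 1.78 TPM in knockout replicates 1 to 4. Heterozygous replicate 2 was the lowest and knockout replicate 4 the highest library, and the other 6 lay between 0.580 and 0.893 TPM. These levels rest on few reads: 5 in heterozygous replicate 2, with a 95% Poisson interval from 0.067 to 0.482 TPM, and 32 in knockout replicate 4, with one from 1.22 to 2.51 TPM. The intervals of the other 6 libraries all overlapped one another, and all intervals cover counting error only. The means were 0.612 ± 0.296 TPM and 0.995 ± 0.537 TPM (SD, n = 4 each), and the relative log2 fold change was 0.09 with a 95% interval from -0.79 to 0.97 (limma, adjusted p = 1.0). This value moved with single libraries and settings: it was 0.016 without knockout replicate 4 and reached 0.35 without heterozygous replicate 1 and the sex term. It was 0.23 with a pseudocount of 0.1 and 0.32 with limma-voom.

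Neurod1 (ENSMUSG00000034701, chr2:79452521-79456751, minus strand, GRCm38) acts downstream of Neurog1 in differentiating precursors. It was at 1.79, 0.715, 3.55 and 2.77 TPM in heterozygous replicates 1 to 4 and at 3.63, 2.45, 2.00 and 4.23 TPM in knockout replicates 1 to 4. In TPM knockout replicates 1 and 4 lay above all heterozygous libraries, and knockout replicates 2 and 3 lay inside their range. After median-ratio scaling knockout replicate 2, at 2.82, was above the heterozygous maximum of 2.55 as well. The means were 2.21 ± 1.23 TPM and 3.08 ± 1.03 TPM (SD, n = 4 each), and the relative log2 fold change was 0.42 with a 95% interval from -0.56 to 1.40 (limma, adjusted p = 1.0). Leaving out knockout replicate 1 took it to 0.05 and leaving out heterozygous replicate 1 to 0.78, and without heterozygous replicate 2 it was 0.26. With animal series as a term it was 0.13, in the higher-numbered animals 0.51 with the sex term and 0.12 without it, and in the animals whose titles end in the same number 0.060.

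The 2 factors did not rank the libraries alike. After median-ratio scaling Neurog1 and Neurod1 had a Pearson's r of 0.64 over the 8 libraries, which became 0.17 without heterozygous replicate 2, where both were lowest. Neurog1 followed the growth cone gene Dpysl5 most closely among the 8, with a scaled r of 0.90, a Spearman's rho of 0.93 and 0.64 without the 2 libraries farthest from the median of Neurog1. Neurod1 followed Gap43 most closely, with a scaled r of 0.72, a rho of 0.55 and 0.38 without the 2 farthest libraries. For this pair r was 0.81 within genotypes and 0.66 without heterozygous replicate 2.

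Other regulators of neurogenesis lay on both sides of the median gene. Of 25 on the list 20 were tested, and 0 were called in the limma fit, with 7 above and 13 below the median gene and a median log2 fold change of -0.07. Without the sex term the median was 0.03, with 12 above and 8 below. The most abundant were Sox2, a factor of stem and supporting cells, at 80.2 to 166 TPM in heterozygous and 79.5 to 178 TPM in knockout libraries, and Nhlh1, a helix-loop-helix factor of newly formed neurons, at 32.1 to 121 and 64.4 to 107 TPM. Hes1, a repressor driven by Notch signalling, lay at 34.4 to 61.8 and 31.1 to 60.5 TPM. Of the close relatives Neurod4 was at most 0.0749 TPM in any library and was not tested.

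Growing axons were represented by Gap43, Stmn2, Dpysl3 and Dpysl5. Gap43 (ENSMUSG00000047261, chr16:42248442-42340651, minus strand, GRCm38) encodes a membrane protein of growth cones and is the usual marker of immature vomeronasal neurons. It was at 36.0, 18.5, 52.8 and 38.1 TPM in heterozygous replicates 1 to 4 and at 51.1, 29.5, 32.4 and 46.0 TPM in knockout replicates 1 to 4. In TPM all 4 knockout libraries lay inside the heterozygous range. After median-ratio scaling they did not, at 27.2 to 53.1 against 27.8 to 46.9 in the heterozygous libraries. The means were 36.4 ± 14.0 TPM and 39.8 ± 10.4 TPM (SD, n = 4 each), and the relative log2 fold change was 0.09 with a 95% interval from -0.72 to 0.91 (limma, adjusted p = 1.0). Its direction turned with single libraries: it was -0.49 without knockout replicate 1 and 0.67 without heterozygous replicate 1.

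Stmn2 (ENSMUSG00000027500, chr3:8509360-8561606, plus strand, GRCm38) encodes a growth cone protein that destabilises microtubules. It was at 21.1, 13.7, 32.9 and 24.5 TPM in heterozygous replicates 1 to 4 and at 22.3, 24.0, 23.0 and 29.1 TPM in knockout replicates 1 to 4. In TPM the knockout libraries again lay inside the heterozygous range. After median-ratio scaling they did not, at 19.23 to 27.64 against 20.56 to 27.55 in the heterozygous libraries. The means were 23.1 ± 7.97 TPM and 24.6 ± 3.08 TPM (SD, n = 4 each). The relative log2 fold change was -0.07 with a 95% interval from -0.84 to 0.70 (limma, adjusted p = 1.0). After median-ratio scaling Stmn2 was the steadiest of the 8 genes, with a coefficient of variation of 13.1% over the 8 libraries, and its interval narrowed to -0.47 to 0.28.

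Dpysl3 and Dpysl5 encode members of the collapsin response mediator protein family, which bind tubulin and act in growth cone steering. Dpysl3 (ENSMUSG00000024501) was at 49.3, 31.8, 107 and 68.4 TPM in heterozygous replicates 1 to 4 and at 63.4, 61.5, 71.7 and 77.1 TPM in knockout replicates 1 to 4. The knockout libraries fell within a narrow part of the heterozygous range, with means of 64.1 ± 32.3 TPM and 68.4 ± 7.27 TPM (SD, n = 4 each). The relative log2 fold change was 0.08 with a 95% interval from -0.74 to 0.89 (limma, adjusted p = 1.0), and from -0.38 to 0.48 after median-ratio scaling.

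Dpysl5 (ENSMUSG00000029168, chr5:30711564-30799375, plus strand, GRCm38) was at 8.06, 4.54, 13.6 and 10.3 TPM in heterozygous replicates 1 to 4 and at 7.55, 9.65, 11.8 and 17.0 TPM in knockout replicates 1 to 4. In TPM knockout replicate 4 was the highest library and the other 3 lay inside the heterozygous range. After median-ratio scaling knockout replicate 2, at 11.1, was above the heterozygous maximum of 10.5 as well. The means were 9.15 ± 3.83 TPM and 11.5 ± 4.04 TPM (SD, n = 4 each). The relative log2 fold change was 0.01 with a 95% interval from -0.88 to 0.90 (limma, adjusted p = 1.0), and from -0.40 to 0.39 after median-ratio scaling. For all 4 growth cone genes the intervals include differences in both directions on either scale, which does not show that the groups were alike.

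The libraries that were high or low on the scaled values differed from gene to gene. After median-ratio scaling Mki67 and Top2a were lowest in heterozygous replicate 1, which had the second highest Gap43 and Stmn2. Neurog1, Neurod1, Dpysl3 and Dpysl5 were lowest in heterozygous replicate 2. Knockout replicate 4 had the highest Neurog1 and Dpysl5, and knockout replicate 1 the highest Mki67, Top2a, Neurod1 and Gap43. The largest spread over the 8 scaled libraries was that of Neurog1, with a coefficient of variation of 38.4%, and the dividing-cell genes had 25.4% for Mki67 and 16.9% for Top2a.

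**Figure D4:**
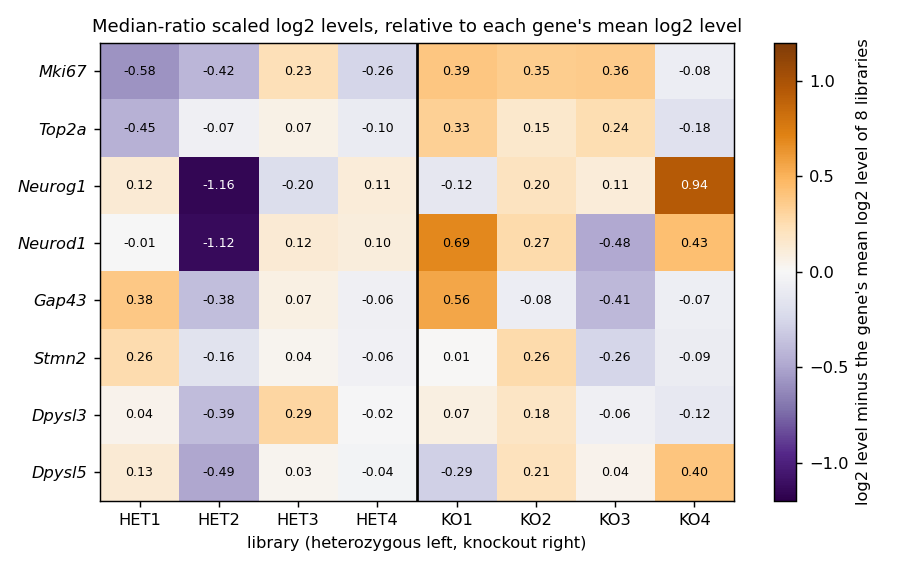
Median-ratio scaled level of each gene (rows) in each library (columns; HET, heterozygous, left of the line; KO, knockout, right) as its log2 level minus the gene's mean log2 level over the 8 libraries, printed and coloured from purple (lower) to orange (higher). Mki67 and Top2a are lowest in HET1 at -0.58 and -0.45, and Neurog1 and Neurod1 are lowest in HET2 at -1.16 and -1.12.

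Related genes of the growth cone families overlapped in the same way. Stmn1, Stmn3 and Stmn4, the other stathmins, lay at 61.9 to 142, 98.6 to 178 and 35.1 to 78.1 TPM in heterozygous libraries and at 101 to 125, 136 to 149 and 54.2 to 62.3 TPM in knockout libraries. Crmp1, Dpysl2 and Dpysl4, the other mediator proteins, lay at 2.40 to 8.21, 8.74 to 22.6 and 0.361 to 1.13 TPM in heterozygous and at 4.46 to 9.001, 14.7 to 20.01 and 0.823 to 1.33 TPM in knockout libraries. Of the 24 immature neuron genes listed, 23 were tested, 0 were called in the limma fit, 6 were above and 17 below the median gene, and the median log2 fold change was -0.06. With 1 library left out, the median of these genes ranged from -0.12 to 0.004. The most abundant of them besides Stmn3 were the surface protein Cd24a at 587 to 931 and 544 to 1287 TPM, the actin-binding Tmsb10 at 304 to 481 and 302 to 428 TPM, and the tubulin Tubb2b at 77.3 to 229 and 138 to 176 TPM in heterozygous and knockout libraries. Gng8, a G protein subunit of young vomeronasal neurons, was the lowest of the list at -0.35 and the adhesion molecule Ncam1 the highest at 0.27.

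Young neurons can also be set against mature ones, and here 1 library decided the picture. Per 1000 TPM of Omp, Gnai2 and Gnao1 together, Gap43 was at 139 in heterozygous replicate 1, at 24.6 to 41.4 in the other 3 heterozygous libraries and at 31.9 to 64.9 in the knockout libraries. Stmn2 was at 81.5 in heterozygous replicate 1, at 18.2 to 25.8 in the other 3 and at 22.8 to 28.3 in the knockout libraries. All 8 genes were highest in heterozygous replicate 1 on this scale. Per 1000 TPM of Gnai2 and Gnao1 alone, Gap43 was at 187 in that library, within the 107 to 237 of the knockout libraries, and Stmn2 at 110, against 75.8 to 103 in the knockout libraries and 85.2 to 110 among the heterozygous ones. With Omp out of the reference Mki67 and Top2a were lowest, not highest, in heterozygous replicate 1, at 9.26 and 13.1.

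**Figure D5:**
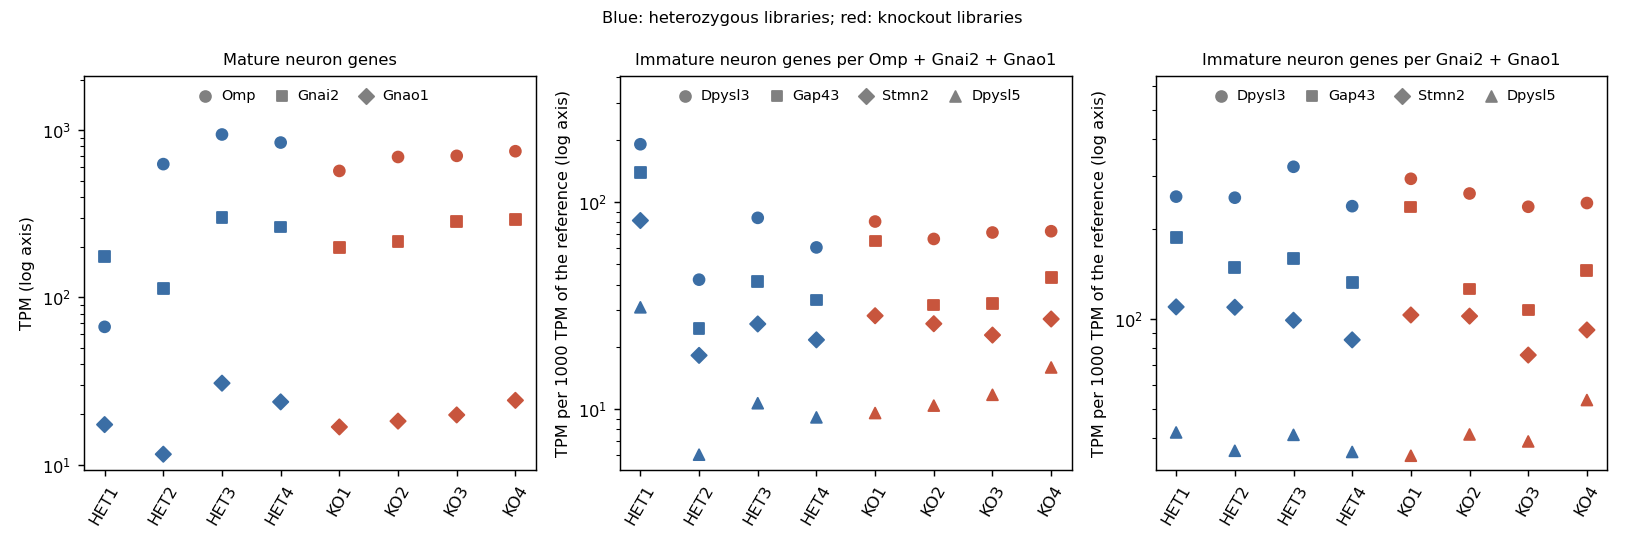
Left, Omp, Gnai2 and Gnao1 in TPM (log axis) in each heterozygous (blue, HET) and knockout (red, KO) library; middle and right, Dpysl3, Gap43, Stmn2 and Dpysl5 per 1000 TPM of Omp, Gnai2 and Gnao1 or of Gnai2 and Gnao1 (log axes). HET1 stands apart in Omp, at 66.7 TPM, and in the middle panel, and not in the right panel.

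The fits carried that library through. With each library scaled to Omp, Gnai2 and Gnao1 the log2 fold changes as fitted were 0.09 for Mki67, -0.10 for Top2a, -0.25 for Neurog1, -0.05 for Neurod1, -0.48 for Gap43, -0.65 for Stmn2, -0.51 for Dpysl3 and -0.55 for Dpysl5, with 0 of 8 called, where 2.46% of all genes were. The median of all tested genes was itself at -0.52 in this fit. Relative to it the 8 genes were at 0.61, 0.42, 0.27, 0.47, 0.037, -0.13, 0.015 and -0.027 in the same order, so the lower values are a shift shared with the typical gene. Scaled to Gnai2 and Gnao1, where the median of all tested genes was at -0.01, the values as fitted were 0.58, 0.40, 0.18, 0.46, 0.06, -0.11, 0.04 and -0.01 in the same order, with 0 of 8 called, where 0.750% of all genes were. On that scale 1 of 8, Mki67, had an unadjusted p under 0.05 (limma, adjusted p = 0.676), where 4.71% of all genes did. In the 7 libraries without heterozygous replicate 1, scaled to all 3 mature neuron genes and fitted without sex, they ran from 0.26 for Stmn2 to 0.58 for Neurod1 as fitted, where the median of all tested genes was at 0.18, and from 0.073 for Stmn2 to 0.40 for Neurod1 relative to that median. Of the 8, 0 were called, where 0.611% of all genes were, and at an unadjusted p under 0.05 it was again 1 of 8, Mki67, where 5.20% of all genes passed.

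Males and females were spread unevenly, with 1 male among the heterozygous mice and 3 among the knockout mice, and sex was a term of the fit. The limma fit called 0 of the 8 genes between males and females, where 0.0492% of all genes were called. The differences, males minus females as fitted on the log2 scale, ran from -0.37 for Top2a to 0.29 for Dpysl5 (limma, adjusted p = 1.0 for all 8). The lone male control and the lone female knockout, both replicate 1, therefore count with a weight of 0.5 in the genotype term, and every other library with 0.167.

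Markers of other cells differed between libraries as well. B and plasma cell genes summed over 7 genes to 2900 to 10470 TPM in heterozygous and 2511 to 4863 TPM in knockout libraries, with 1 of 7 above the median gene and a median of -0.26. The 11 main olfactory neuron genes summed to 302 to 506 and 298 to 463 TPM, with 1 of 11 above the median gene and a median of -0.26, and 1 of them, Stoml3, was lower in knockout libraries without overlap. The 6 basal stem cell genes, among them Krt5, summed to 351 to 754 and 334 to 920 TPM, with 5 of 6 above the median gene and a median relative log2 fold change of 0.24. The supporting cell genes had 0 of 8 above it and a median of -0.66, with sums of 4900 to 10190 TPM, highest in heterozygous replicate 2, and 4393 to 7938 TPM. Cartilage and bone genes had 6 of 7 tested above it and a median of 0.51, with sums of 880 to 2947 and 1198 to 3106 TPM. Erythroid genes had 5 of 5 tested above it and a median of 0.40, with sums of 3900 to 20930 and 4954 to 14330 TPM. Endothelial genes had 6 of 6 above it and a median of 0.30, with sums of 13.9 to 45.8 and 27.9 to 49.7 TPM. Glial genes had 7 of 7 above it and a median of 0.13, with sums of 96.6 to 152 and 101 to 153 TPM. The medians were 0.10 for other immune cells (8 of 12 above), 0.10 for gland cells (4 of 6), -0.12 for skeletal muscle (0 of 2 tested) and -0.14 for mature vomeronasal neurons (2 of 7 tested). At an unadjusted p under 0.05, which 3.10% of all genes reached, there were 3 cartilage and bone genes (Comp, Bglap and Ibsp, all above the median gene) and 1 each of the mature neuron (Omp, above), basal stem cell (Krt17, below) and main olfactory (Stoml3, below) genes, named after their values were seen. Omp was at 66.7 TPM in heterozygous replicate 1. The other heterozygous libraries had 627 to 943 TPM of it, not below the 571 to 749 TPM of the knockout libraries. None of these lists held a called gene in the limma fit, the groups overlapped in every list's sum, and their part in the levels of the 8 genes was not tested.

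The genes most like each of the 8 over the 8 libraries were found by Pearson's r of log2 TPM among genes of at least 1 TPM on average. Mki67 was followed most closely by Rassf2 (r = 0.99), Slit2 (0.99) and Kif20b (0.98), and Top2a by Kif20b (0.99), Pgam2 (0.99) and Zfp948 (0.99). Kif20b, a kinesin of cell division, was among the 3 closest to both. Neurog1 was closest to Celsr2, Capn15 and 2900005J15Rik, and Neurod1 to Gm13127, Sema3g and Itga7, all with r of 0.99. Gap43 was closest to Tbx3 (0.99), Hrc (0.98) and Bmp4 (0.98), Stmn2 to Pdzd4, Rnf165 and Gm14597 (0.99 each), Dpysl3 to Nrros, Ank and Plcl2 (0.99 or above) and Dpysl5 to Srcin1, Neurl1a and Gm6185 (0.99 or above). Most of this likeness was shared by the whole library. The median r of a member with all other genes was 0.62 to 0.81, and it was -0.04 to 0.02 after median-ratio scaling, where 2 to 42 genes had an r above 0.95 with a given member, against 37 to 1271 before. After scaling, Mki67 was closest to Tbc1d23 (0.97), Top2a to Scgb2b15 (0.97), Neurog1 to Peg13 (0.99), Neurod1 to Gm13127 (0.98), Gap43 to Cd2bp2 (0.97), Stmn2 to Mgme1 (0.96), Dpysl3 to Plcl2 (0.97) and Dpysl5 to Pcgf3 (0.99). Kif20b was then not among the 3 genes closest to Mki67 or Top2a.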

How the data were processed

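Whole vomeronasal organs of 8 mice were sequenced as stranded, polyadenylated RNA with paired reads of 150 bases, from extracts with an RNA integrity number above 7, per the labels' protocols. The authors deposited TPM per gene and library, and replicates were not pooled. The submitters' processing notes name Trim Galore 0.6.5, cutadapt 5.1, STAR 2.7.11b and deepTools 3.5.5 with mm10 and GRCm38; the counting program and its handling of shared reads are not given in the sources used here. Reads were recovered as TPM times the summed exon length in GENCODE M21 (26045 genes whole within 0.01 in all libraries, the 8 genes among them), and intervals on them cover counting error only.

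The 20305 genes whose mean reached 0.5 TPM were analysed as log2(TPM + 0.5), which understates the change of low genes, in limma 3.58.1 (R 4.3.3; lmFit, eBayes with trend; genotype and sex; Benjamini-Hochberg). The script was tested on simulated data. P-values measure the spread between 4 animals per group.

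Named were the 8 genes, Tex15, called or otherwise the 4 most abundant genes of each stage list, the lists' extremes, family relatives, and the 3 genes most like each of the 8. Some genes this rule names are not reported here. The genes and lists were chosen with earlier results of these data known. Promoters came from RefSeq, where 5 of the 8 genes were matched. Alternatives were other pseudocounts, filters, scalings and designs, limma-voom on recovered reads, the 6 higher-numbered animals alone, and leaving out each library. Scaling to Gnai2 and Gnao1, median-ratio scaling within those animals, and the fit of 7 libraries scaled to mature neuron genes were added after seeing the data.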

Additional observations from a re-analysis of the deposited data

Results flagged for a closer look

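In 52 groups of 4 values examined (the 8 genes on 3 scales, Omp, and the sum of Omp, Gnai2 and Gnao1, each in both genotypes), 5 had 1 library far from the other 3, and chance gives about 1 in 20. Per 1000 TPM of Omp, Gnai2 and Gnao1, heterozygous replicate 1 lay apart for Gap43, at 138.7 against 24.6, 33.7 and 41.4, and for Stmn2, at 81.5 against 18.2, 21.6 and 25.8. That library had 66.7 TPM of Omp. Per 1000 TPM of the same 3 genes, knockout replicate 4 lay apart for Neurog1, at 1.67 against 0.748, 0.779 and 0.888, from 32 reads.

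After median-ratio scaling, heterozygous replicate 2 lay apart for Neurod1, at 1.07 against 2.33, 2.51 and 2.55. On the same scale knockout replicate 4 lay apart for Mki67, at 3.30 against 4.45, 4.47 and 4.56, below the other 3 knockout libraries and inside the heterozygous range.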

How the results depend on the processing

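In all 35 alternatives 0 of the 8 genes and 0 genes of the 4 stage lists were called, and Mki67 stayed above the median gene in each. The count of all genes called was 119, and it was 72 without a filter, 503 after scaling to Omp, Gnai2 and Gnao1, 371 and 184 in the 6 higher-numbered animals with and without the sex term, 374 in the animals whose titles end in the same number, 46 with limma-voom, and 83 to 254 when 1 library was left out (83 without heterozygous replicate 1, and 254, 202 and 190 without heterozygous replicate 4, heterozygous replicate 2 and knockout replicate 4). Directions turned in these cases, as log2 fold changes. Scaled to Omp, Gnai2 and Gnao1, as fitted, Neurog1 was at -0.25, Neurod1 at -0.052, Top2a at -0.10, Gap43 at -0.48, Dpysl3 at -0.51 and Dpysl5 at -0.55, but the median gene was at -0.52 there, and relative to it only Dpysl5 turned, to -0.027. Dpysl5 was at -0.001 with pseudocount 0.1 and with limma-voom, at -0.004 after median-ratio scaling and at -0.014 scaled to Gnai2 and Gnao1. With animal series as a term Dpysl3 was at -0.26 and Dpysl5 at -0.32, and in the 6 higher-numbered animals with sex at -0.11 and -0.30. In the same animals without sex Gap43 was at -0.017 and Dpysl3 at -0.14 (-0.001 and -0.12 after median-ratio scaling), and in the animals with the same last title number Gap43 was at -0.01, Dpysl3 at -0.11 and Dpysl5 at -0.025. Without heterozygous replicate 1 and scaled to the 3 mature neuron genes Stmn2 was at 0.26 as fitted and 0.073 relative to the median gene. With 1 library left out Gap43 ranged from -0.49 to 0.67, Stmn2 from -0.21 to 0.072, Dpysl3 from -0.078 to 0.20 and Dpysl5 from -0.12 to 0.33; Neurog1 ranged from 0.016 to 0.35, Neurod1 from 0.05 to 0.78, Mki67 from 0.36 to 0.67 and Top2a from 0.17 to 0.47. List medians turned as well. Without the sex term, with or without the block, those of S phase, G2 and M phase and neurogenic genes were -0.064, -0.04 and 0.03. The S phase and G2 and M phase medians were -0.065 and -0.055 in the higher-numbered animals without sex (-0.058 and -0.083 after median-ratio scaling), -0.024 and -0.009 in those with the same last title number, and -0.484 and -0.37 as fitted with Omp in the reference; with pseudocount 1 the latter was -0.012. In the 7 libraries scaled to the 3 mature neuron genes the neurogenic and immature medians were 0.294 and 0.193 as fitted. With 1 library left out the S phase median ranged from -0.091 to 0.072, G2 and M phase from -0.081 to 0.063, neurogenic from -0.102 to 0.104 and immature from -0.12 to 0.004. The cause of the other turns was not tested.

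Library numbers did not pair the libraries: deviations of same-numbered libraries correlated at -0.06, 0.00, 0.08 and 0.01, and no library matched its own number best. With the number as a replicate block 128 genes were called with the sex term and 130 without it, and 0 of the 8. Depth limits Neurog1 most, at 5 to 32 reads per library.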
